A study of Mus musculus with 24 samples.

Results

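Heat shock chaperone genes were examined in the hypothalamus of male F2 mice that differed in genotype across a segment of chromosome 17. The set was a list of 10 named genes, namely Hspa1a, Hspa1b, Hspa1l, Hspa8, Hspa5, Hsp90aa1, Hsp90ab1, Dnajb1, Hsph1 and Hspb1, of which those present among the gene identifiers of the deposited table were kept. Of the 10, 9 were in the table, which held 13998 genes in all, and Hspa1l was not analysed here. Of the 4 listed genes that lie in the chromosome 17 segment, 3 were measured (Hspa1a, Hspa1b and Hsp90ab1), and the other 6 measured genes lie on other chromosomes. All 9 passed the minimum mean normalized count of 5.

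The mice were b6/b6 or cast/cast across the subcongenic segment, with 12 mice of each genotype, and all 24 were b6/b6 in the rest of the genome. They descended from a single B6.CAST-17.1 male crossed to C57BL/6J females, were adults when the intake test began, and had chosen between a carbohydrate/protein and a fat/protein diet. The cast/cast mice were taken from the upper tail and the b6/b6 mice from the lower tail of carbohydrate intake, so that genotype and the intake used to choose the mice cannot be told apart. After a period on chow they were returned to both diets before the hypothalamus was taken, and 1 library was made from each mouse. The comparison asked which transcripts differ between the genotypes at a locus that affects carbohydrate and total energy intake. Total tag hits were 7754202 to 13082873 per library, and the median was 10383038 for the cast/cast group and 10032338.5 for the b6/b6 group.

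Heat shock chaperones bind proteins that are unfolded, newly made or damaged and help them to fold or to be degraded. HSP70 proteins hold short exposed stretches of a client in a cycle driven by ATP, which J-domain proteins such as the product of Dnajb1 start and exchange factors such as that of Hsph1 reset. HSP90 proteins act later, on clients that include steroid hormone receptors and kinases. The genes fall into constitutive forms, which neurons express at all times, and forms that heat shock factor 1 switches on under stress. Hspa5 encodes the HSP70 of the endoplasmic reticulum, which the unfolded protein response induces.

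Each gene was taken to be measured by a single tag next to the restriction site CATG nearest to the 3′ end of its transcripts. The tag decides what a count stands for. A transcript gives 1 tag whatever its length, and levels of different genes could therefore be compared without a length correction. The tags below were predicted from the GENCODE M21 transcripts of GRCm38, with CATG in capitals. They are shown because 2 members share their tag with other genes.

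Hspa1a: CATGtgttcagtttttacacaaccatc
Hspa1b: CATGtctacactgccaccctgtgtaca
Hspa1l: CATGgtgcaggaggccgagcgctacaa
Hspb1: CATGgctacatctctcggtgcttcacc
Hspa8: CATGgaataataaaactatttaaattg

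The Hspa1a tag (chr17:34969417-34969443, minus strand) and the Hspa1b tag (chr17:34956508-34956534, minus strand) lie in the 3′ UTR of the only exon of their genes. They differed at 16 of 27 positions, and each was found in the transcripts of 1 gene, so that the predicted tags keep the pair apart although their coding regions are nearly identical. The predicted tag of Hspa1l (chr17:34978543-34978569, plus strand), a paralog known for expression in the testis, lies in coding exon 2 and also occurs inside the transcripts of Hspa1a and Hspa1b. The Hspb1 tag (chr5:135889075-135889101, plus strand) lies in coding exon 2 and is shared with the pseudogene Hsp25-ps1, so counts of Hspb1 are uncertain to that extent. The Hspa8 tag (chr9:40805168-40805194, plus strand) lies in the 3′ UTR of exon 9, 33 bases from the transcript's end, and had a GC content of only 18.5%. The other 5 members had a tag in the 3′ UTR of their last exon that was found in 1 gene only. For Hsp90aa1 and Dnajb1 the predicted tag lies beyond the transcript end that the deposited table gives, so the site counted for these genes may have been another one.

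Hspa1a and Hspa1b are neighbours on the minus strand and are almost the same upstream. The RefSeq windows (GRCm38.p6) of 300 bases around their start sites were identical at 296 positions (98.7%). Counting from 1 at the 5′ end of the window, the changes from Hspa1a to Hspa1b were C44T, T47C, T249G and C276T. The 250 bases before the start site are printed here with the core of a heat shock element in capitals, for Hspa1a at chr17:34972157-34972406 and for Hspa1b at chr17:34959239-34959488. The reference is that of the B6 strain, and the CAST sequence was not analysed here.

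Hspa1a: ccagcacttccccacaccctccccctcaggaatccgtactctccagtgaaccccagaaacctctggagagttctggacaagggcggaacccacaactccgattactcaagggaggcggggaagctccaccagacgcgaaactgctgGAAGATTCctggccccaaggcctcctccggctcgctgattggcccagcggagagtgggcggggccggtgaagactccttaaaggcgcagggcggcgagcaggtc
Hspa1b: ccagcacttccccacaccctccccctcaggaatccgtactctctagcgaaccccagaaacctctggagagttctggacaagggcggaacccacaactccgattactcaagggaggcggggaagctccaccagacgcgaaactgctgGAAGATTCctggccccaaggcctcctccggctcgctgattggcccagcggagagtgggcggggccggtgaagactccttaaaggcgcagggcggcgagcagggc

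The heat shock element core was searched as GAANNTTC or TTCNNGAA on both strands, and 15.1% of the 32851 RefSeq windows of the same length held at least 1. In both Hspa1a and Hspa1b, 1 match began 104 bases before the start site. The window of Hspb1 held 2 matches and each of the overlapping windows of Hsph1 held 3, whereas those of Dnajb1, Hspa1l and Hspa5 held none. In each Hsph1 window 1 match began before the start site, and the other 2, which overlap each other, began after it. The window of Hspa5 held the endoplasmic reticulum stress element, CCAAT and CCACG with 9 bases between them, which 0.119% of all windows held. It is printed for the 250 bases before the start site (chr2:34771840-34772089, plus strand) with the element in capitals.

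Hspa5: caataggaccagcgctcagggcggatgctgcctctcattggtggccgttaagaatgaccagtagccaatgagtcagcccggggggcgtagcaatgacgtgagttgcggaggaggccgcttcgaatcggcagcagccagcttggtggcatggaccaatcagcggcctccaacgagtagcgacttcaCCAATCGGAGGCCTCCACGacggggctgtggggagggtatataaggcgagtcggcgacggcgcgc

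Windows of Hspa8, Hsp90aa1 and Hsp90ab1 were not analysed here. A match is a description of the reference sequence only.

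The chaperones spanned more than 3 orders of magnitude in level, from Hspa8 to Hspa1b, and 82.3% of all member tags came from Hspa8. Hspa8, the constitutive cytosolic HSP70, had the highest mean normalized count of all 13998 genes, at 163929 over the 24 mice, and was the most abundant gene in 19 of 24 mice. It made up 1.55% ± 0.351 (SD, n = 12) of normalized counts among b6/b6 and 1.73% ± 0.545 (SD, n = 12) among cast/cast mice. Hsp90ab1, the constitutive HSP90, followed at 14208 and Hspa5 at 11061, and Hsp90ab1 was the higher of this pair in only 15 of 24 mice. Hsph1, which encodes HSP110, came next at 6675 and the inducible HSP90 gene Hsp90aa1 at 2745, each in this order in 24 of 24 mice. Dnajb1 averaged 260 and was above Hspa1a in 22 of 24 mice. At the lower end Hspa1a (97.4), Hspb1 (92.0) and Hspa1b (71.2) did not keep an order, since Hspa1a was above Hspb1 in 12 and Hspb1 above Hspa1b in 15 of 24 mice. The inducible HSP70 genes were thus rare beside their constitutive paralog, and Hspa8 exceeded the sum of Hspa1a and Hspa1b by a median of 1034 times (range 329 to 1997). Within HSP90 the constitutive Hsp90ab1 exceeded Hsp90aa1 by a median of 5.20 times (range 2.10 to 10.7). For Hsp90aa1 and Dnajb1 the site counted may not have been the predicted one. Their levels beside other genes, and this HSP90 ratio, are uncertain to that extent.

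**Figure D1:**
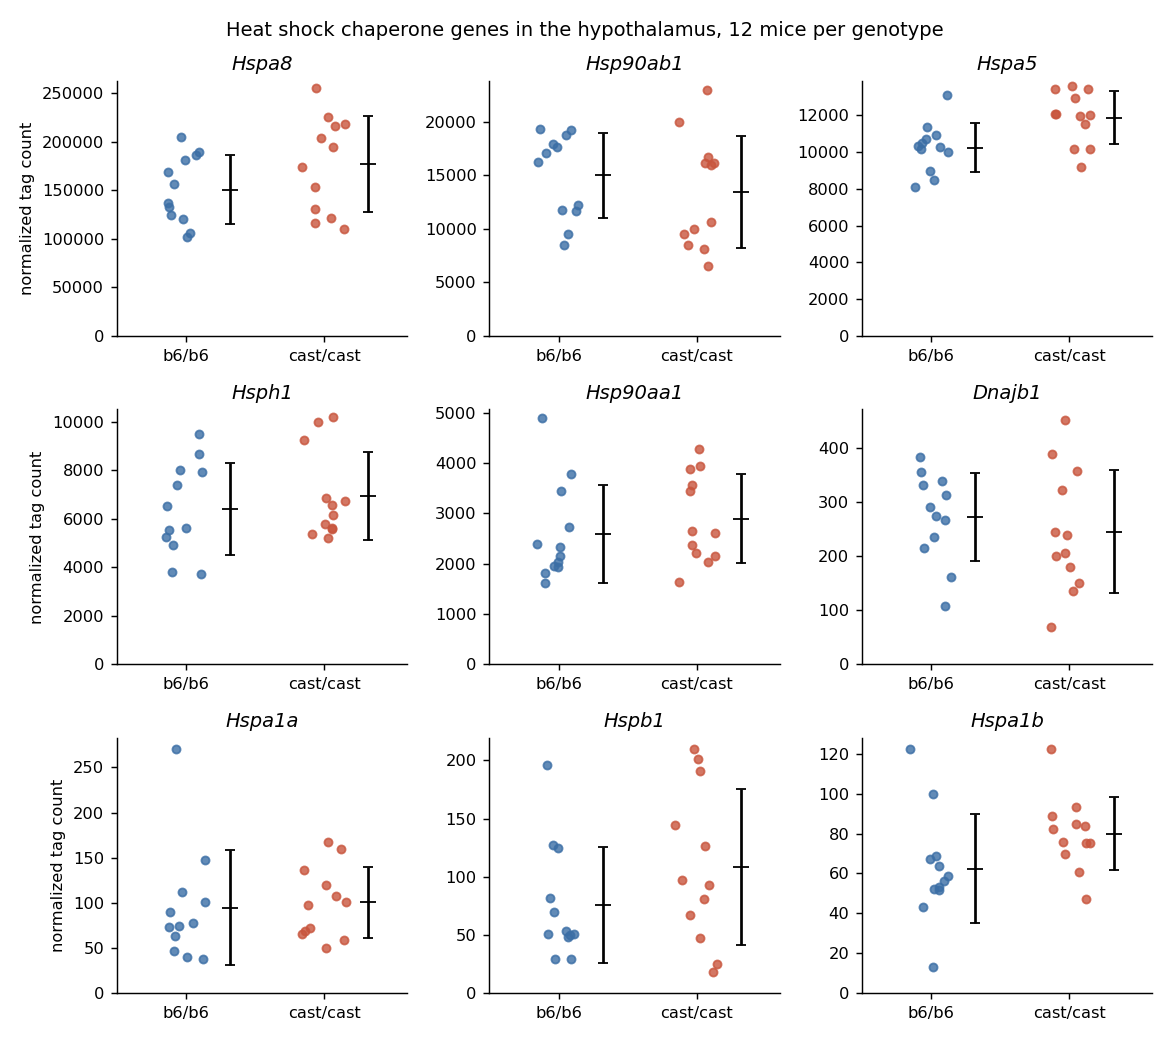
Normalized tag count (y axis, linear from 0) of each measured chaperone gene in each mouse (points), with the mean and SD beside them, for 12 b6/b6 and 12 cast/cast mice. The genotypes overlap in every panel, and single mice stand apart for Hspa1a (271 in b6/b6 mouse 4) and Hspa1b (13.1 in b6/b6 mouse 12).

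No chaperone of the set was called different between cast/cast and b6/b6 mice. A call needed P of at most 0.01 by limma on log2(normalized count + 1) and a ratio of means of at least 1.5, and 0 of 9 members met it, beside 1.49% of all 13998 genes. For the 3 members in the segment the background was higher, since 24.4% of its 430 tested genes were called, and outside the segment it was 0.713% of 13319 genes. At an unadjusted P under 0.05 the same 1 member, Hspa5, passed by limma, by edgeR and by DESeq2, beside 8.13% of all genes by limma. On the recovered tag hits edgeR and DESeq2 also called 0 of 9, beside 391 and 395 of all 13998 genes. The adjusted P of the members lay between 0.608 and 0.836 (limma, Benjamini-Hochberg over all genes), so that 0 of 9 reached 0.05, beside 0.572% of all genes. Of the 9 log2 fold changes 7 were above 0, beside 6620 of all 13998 genes, with a median of 0.21 beside -0.02 over all genes. The 95% confidence interval left out a 2-fold change for 8 of the 9, the exception being Hspb1, and left out a 1.5-fold change for Hspa8, Hspa5, Hsp90aa1 and Hsph1. In whole hypothalamus, fewer cells of a type and less RNA per cell cannot be told apart.

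**Figure D2:**
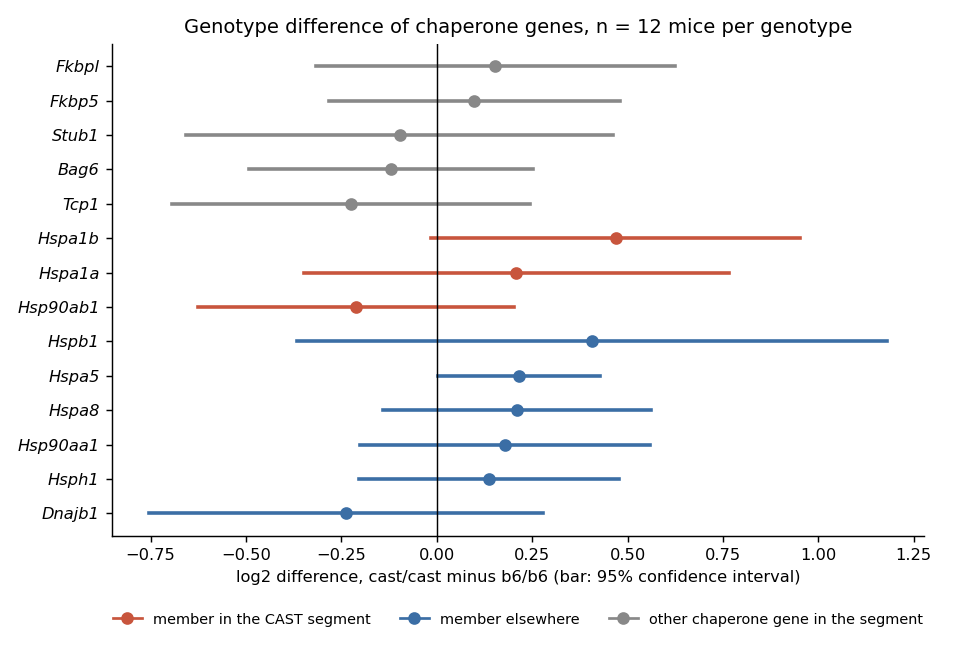
Log2 difference between cast/cast and b6/b6 mice (x axis; points, with 95% confidence intervals as bars) for the measured chaperones inside and outside the segment and for 5 other chaperone genes of the segment. Every interval except that of Hspa5 includes 0, and Hspb1 has the widest.

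Among the HSP70 genes of the segment, Hspa1b had the larger difference. Its normalized count among b6/b6 mice ran from 13.1 through a median of 57.4 to 122, and among cast/cast mice from 47.2 through 78.8 to 122. Of the cast/cast mice 11 of 12 were above the b6/b6 median, but only 1 was above all b6/b6 mice. The means were 62.4 ± 27.3 (SD, n = 12) and 79.9 ± 18.4 (SD, n = 12), a log2 fold change of 0.47 ± 0.24 (SE) with P = 0.0570 and an adjusted P of 0.612 (limma). The lowest b6/b6 value rested on 12 tag hits. Without the 3 libraries whose median correlation with the others was under 0.9 (cast/cast 6, b6/b6 6 and b6/b6 12), the log2 fold change was 0.26 (P = 0.138, limma). The labels number the mice of the study, and the median number was 269.5 for the b6/b6 and 120.5 for the cast/cast group. With this study number as a covariate the log2 fold change was 0.58 ± 0.23 (SE, P = 0.0192, adjusted P = 0.281, limma).

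Hspa1a, the next gene to Hspa1b on that strand among the members, ran from 38.1 through 75.9 to 271 among b6/b6 mice and from 49.6 through 99.6 to 167 among cast/cast mice. All cast/cast values lay inside the b6/b6 range, whose top was set by b6/b6 mouse 4. The log2 fold change was 0.21 ± 0.27 (SE, P = 0.449, adjusted P = 0.836, limma), and without the 3 libraries it was -0.05 (P = 0.848, limma). The ratio of Hspa1a to Hspa1b had a median of 1.37 among b6/b6 and 1.22 among cast/cast mice, and it ranged from 0.635 to 5.21 among b6/b6 mice. Hspa1a was the higher of the pair in 16 of 24 mice.

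Hsp90ab1, the third measured member in the segment (chr17:45567778-45573261), ran from 8521 through 16646 to 19340 in b6/b6 mice. In cast/cast mice it ran from 6540 through 13315 to 22967, and there 3 mice lay below and 2 above all b6/b6 mice. The log2 fold change was -0.21 ± 0.20 (SE, P = 0.306, adjusted P = 0.762, limma).

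Other genes within 100 kb of these members were called. Of 9 tested genes around Hspa1b, Hspa1a and Hspa1l 3 were called, and of 8 around Hsp90ab1 2 were called, all 5 lower in cast/cast mice. Together they were 29.4% of the 17 neighbours, near the 24.4% called over the segment. Tags were aligned to the reference genome, and CAST alleles within them were not analysed here. For genes of the segment, a lower count from such alleles and less RNA therefore cannot be told apart. 1110038B12Rik lay 3958 bases from Hspa1b, on the same strand, and had a normalized count of 130 to 246 among b6/b6 and 0 to 11.4 among cast/cast mice. Its log2 fold change was -5.05 ± 0.31 (SE, adjusted P = 2.00e-12, limma). Neu1, which encodes the lysosomal sialidase, lay 19132 bases from Hspa1b. It ran from 227 to 425 among b6/b6 and from 68.8 to 214 among cast/cast mice, so that here too the genotypes did not overlap (log2 fold change -1.08 ± 0.16, SE, adjusted P = 1.12e-04, limma). Zbtb12, a zinc finger gene, was called at P = 0.00721 but had an adjusted P of 0.451 (limma). Near Hsp90ab1 lay Aars2, which encodes the mitochondrial alanyl-tRNA synthetase. Its normalized count was 189 ± 63.7 (SD, n = 12) among b6/b6 and 54.4 ± 17.7 (SD, n = 12) among cast/cast animals (log2 fold change -1.78 ± 0.19, SE, adjusted P = 2.96e-07, limma). Slc35b2, which encodes a transporter of the sulfate donor PAPS and ends 109 bases from Hsp90ab1, was called at P = 0.00929 with an adjusted P of 0.482 (limma).

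**Figure D3:**
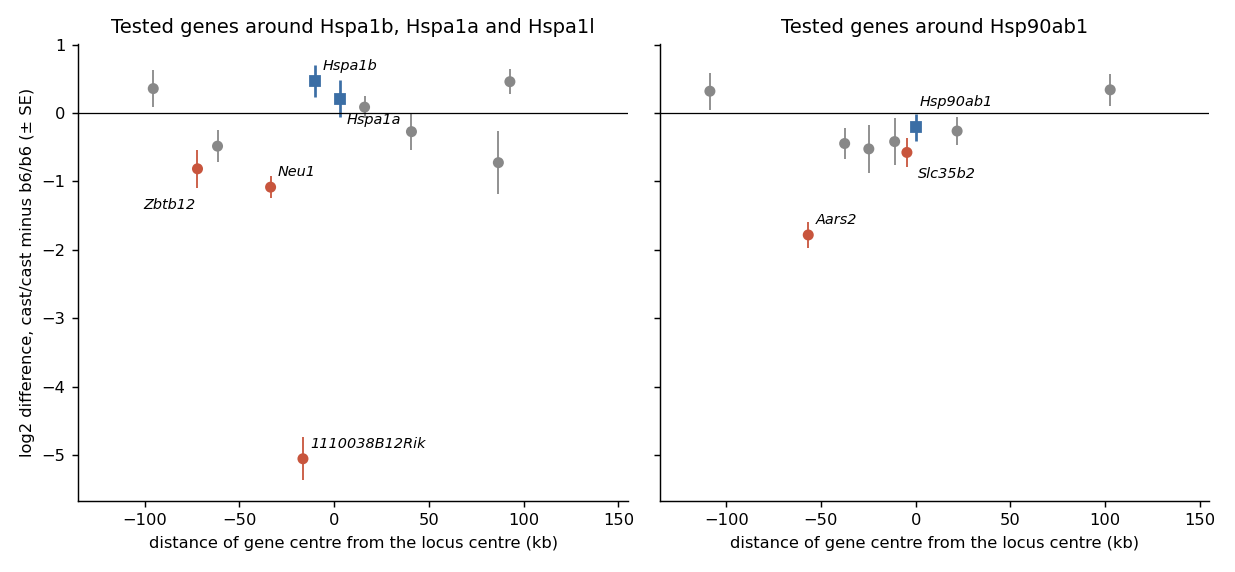
Log2 difference between cast/cast and b6/b6 mice (y axis, ± SE) of tested genes against the distance of their centre from the middle of the Hspa1 cluster (left) or of Hsp90ab1 (right), in kb. Called genes are red, other neighbours grey and the chaperones blue squares; 1110038B12Rik at -5.05 and Aars2 at -1.78 stand apart from the chaperones beside them.

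Among the constitutive genes on other chromosomes, Hspa5 was the steadiest member. It ran from 8084 through 10295 to 13129 among b6/b6 mice and from 9173 through 12049 to 13588 among cast/cast mice. Of the cast/cast mice 9 of 12 were above the b6/b6 median and 3 above all b6/b6 mice. The means were 10242 ± 1345 (SD, n = 12) and 11880 ± 1421 (SD, n = 12). The log2 fold change of 0.22 ± 0.10 (SE) had P = 0.0470 and an adjusted P of 0.608 (limma), with a confidence interval of 1.002 to 1.345 in fold. With each library rescaled to the same total it was 0.12 (P = 0.195, limma). The residual SD within genotype was 0.18 on the log2 scale, at percentile 0.670 of the 8207 genes with a mean of at least 100, whose median was 0.49.

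Hspa8 ran from 102097 through 146455 to 205482 among b6/b6 mice and from 110039 through 184533 to 255096 among cast/cast mice. Of the cast/cast mice 4 lay above all b6/b6 mice, and the lower ends of the groups were close. The log2 fold change was 0.21 ± 0.17 (SE, P = 0.229, adjusted P = 0.718, limma). Its residual SD of 0.38 stood at percentile 29.5.

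The stress-inducible and co-chaperone genes on other chromosomes differed in spread. Dnajb1, the J-domain partner of inducible HSP70, ran from 109 through 283 to 383 among b6/b6 and from 68.8 through 223 to 453 among cast/cast mice. The cast/cast values extended past the b6/b6 range at both ends (log2 fold change -0.24 ± 0.25, SE, P = 0.355, limma). Hspb1, a small heat shock protein, ran from 29.4 through 52.0 to 196 among b6/b6 and from 17.8 through 94.8 to 210 among cast/cast mice. Its highest value was 11.8 times its lowest, the largest such span of the 9 members (log2 fold change 0.41 ± 0.38, SE, P = 0.290, limma). Hsp90aa1 ran from 1626 through 2246 to 4900 among b6/b6 and from 1647 through 2623 to 4278 among cast/cast mice, all inside the b6/b6 range (log2 fold change 0.18 ± 0.19, SE, P = 0.344, limma). Hsph1 ran from 3710 through 6078 to 9488 in b6/b6 mice. In cast/cast mice it ran from 5189 through 6361 to 10179, with a log2 fold change of 0.14 ± 0.17 (SE, P = 0.418, limma). The residual SD on the log2 scale was 0.65 for Dnajb1 and 0.99 for Hspb1, 0.70 for Hspa1a and 0.59 for Hspa1b. It was 0.51 for Hsp90ab1, 0.46 for Hsp90aa1 and 0.40 for Hsph1.

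The members differed in how much of their spread followed differences that ran through whole libraries. Over 9511 genes outside the segment, with chaperone genes left out, the first 2 principal components of the libraries carried 39.3% and 20.1% of the variance. The libraries of cast/cast mice 4, 5, 6 and 8 and of b6/b6 mouse 1 were highest on the first axis, and those of b6/b6 mice 6 and 12 stood apart on the second. Both axes together took 82.9% of the variance of Hspa8, 82.8% of Hsph1, 74.3% of Hspb1 and 61.0% of Hspa1b, beside a median of 56.7% over all genes with a mean of at least 50. The other 5 members were below that median, Hspa1a (55.6%) and Dnajb1 (55.4%) narrowly and Hspa5 (17.9%), Hsp90ab1 (15.7%) and Hsp90aa1 (4.07%) by more. As a description over the 24 mice, Hsph1 rose with the first axis (r = 0.88), as did Hspa1a (r = 0.74), while Dnajb1 fell with it (r = -0.74). Hspa1b (r = -0.77) and Hspa8 (r = -0.76) fell with the second. Hspa5 had r = 0.42 with the first and -0.03 with the second. With both axes in the fit, the log2 fold change was 0.13 for Hspa1b (P = 0.466, limma) and 0.22 for Hspa5 (P = 0.0139, adjusted P = 0.438, limma). In that fit Hsp90ab1 had -0.38 (P = 0.0507, adjusted P = 0.601, limma). The log2 fold change was 0.11 for Hspb1 (P = 0.642, limma), 0.06 for Hspa8 (P = 0.497, limma), 0.04 for Hspa1a (P = 0.862, limma) and -0.02 for Hsph1 (P = 0.827, limma), each less than in the fit without the axes. Hsp90aa1 had 0.22 (P = 0.255, limma), more than its 0.18 without the axes. Dnajb1 had -0.18 (P = 0.346, limma), beside -0.24 without the axes. What the axes stand for was not tested.

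**Figure D4:**
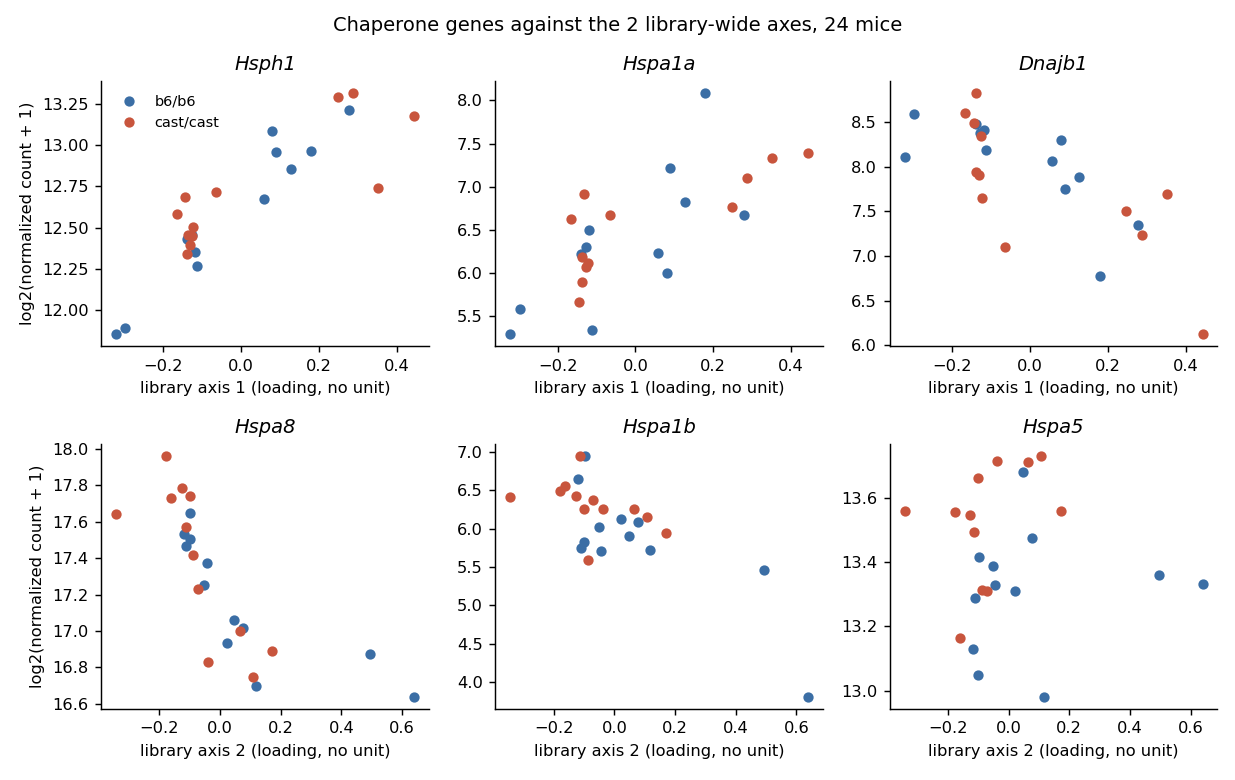
Log2(normalized count + 1) of 6 chaperone genes (y axes) against the loading of each library on axis 1 (upper row) or axis 2 (lower row), 12 b6/b6 and 12 cast/cast mice. Hsph1 and Hspa1a rise and Dnajb1 falls along axis 1, Hspa8 and Hspa1b fall along axis 2, and Hspa5 against axis 2 has r = -0.03.

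Whether members varied together was examined within each genotype for 36 pairs, 72 correlations in all, with a two-sided permutation test of 100000 resamples. By Pearson's r 0 of 72 passed an adjusted P of 0.05, with 19 at an unadjusted P under 0.05, and by Spearman's rho 1 passed. That pair was Hspa5 and Hsph1 in cast/cast mice, with rho = 0.88 (permutation P = 0.000380, adjusted P = 0.0274) and r = 0.70 (permutation P = 0.0103, adjusted P = 0.112). It had r = 0.68 without the 2 mice farthest from the median of Hspa5, r = 0.60 without the 2 farthest from the median of Hsph1, and r = 0.81 among the 8 cast/cast mice that were low on the first axis. After removal of both library axes r was 0.44. Of all genes with a mean of at least 50, 3.79% had an r with Hspa5 and 27.0% an r with Hsph1 at least as large in size. With each library rescaled to the same total, 0 of the 72 passed by rho. In b6/b6 mice this pair had r = 0.23 (permutation P = 0.470, adjusted P = 0.663) and rho = 0.27 (permutation P = 0.403, adjusted P = 0.569).

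Hspa1a and Dnajb1, whose products work in the same HSP70 cycle, had a negative correlation in both genotypes, which did not pass the adjusted threshold. In b6/b6 mice r was -0.76 (permutation P = 0.00484, adjusted P = 0.112) and rho -0.62 (permutation P = 0.0380, adjusted P = 0.211). In cast/cast mice r was -0.71 (permutation P = 0.00763, adjusted P = 0.112) and rho -0.72 (permutation P = 0.0105, adjusted P = 0.211). Without the 2 mice farthest from the Hspa1a median r was -0.60 among b6/b6 and -0.59 among cast/cast mice, and after removal of both library axes it was -0.57 and -0.26. Of all genes with a mean of at least 50, 8.66% among b6/b6 and 20.8% among cast/cast mice had an r with Hspa1a at least as large in size. Hspa1a and Hspa1b had r = 0.41 among b6/b6 (rho = 0.51) and r = -0.09 among cast/cast mice (rho = -0.15), with permutation P of 0.179 and 0.784 for r and of 0.0934 and 0.651 for rho. The adjusted P were 0.349 and 0.925 for r and 0.320 and 0.822 for rho. The median size of r over the member pairs was 0.41 among b6/b6 and 0.42 among cast/cast mice, and over pairs drawn from every 5th gene of the table with a mean of at least 50 it was 0.39 and 0.41.

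Intake and study number gave 54 further correlations within genotype, of which 1 passed an adjusted P of 0.05 by Pearson's r and 0 by Spearman's rho, with 8 at an unadjusted P under 0.05 by r. The study number is the running number of a mouse in the labels. In b6/b6 mice Hsph1 rose with it, at r = 0.87 (permutation P = 0.000310, adjusted P = 0.0167) and rho = 0.83 (permutation P = 0.00153, adjusted P = 0.0529), and r was 0.87 without the 2 mice farthest from the median number. In cast/cast mice r was 0.21 (permutation P = 0.495, adjusted P = 0.811) and rho 0.13 (permutation P = 0.700, adjusted P = 0.880). In b6/b6 mice the first library axis also followed the study number (r = 0.88 as a description), and 1.71% of 9996 genes had an r with it at least as large in size as that of Hsph1. With both axes removed, Hsph1 had r = 0.47 among b6/b6 and r = 0.61 among cast/cast mice, as a description. The difference between the genotypes was not tested.

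For carbohydrate/protein kcal 4 of 18 correlations and for total kcal 1 of 18 had an unadjusted P under 0.05 by r, each with an adjusted P of 0.130. In b6/b6 mice carbohydrate/protein kcal gave r = 0.75 for Hspa1b (permutation P = 0.0110), with rho = 0.40 (permutation P = 0.198, adjusted P = 0.509). For Hspa8 r was 0.72 (permutation P = 0.00628) and rho 0.63 (permutation P = 0.0309, adjusted P = 0.238), and for Hspb1 r was 0.67 (permutation P = 0.0169) and rho 0.66 (permutation P = 0.0213, adjusted P = 0.204). Without the 2 mice farthest from the median intake r was 0.55 for Hspa1b, 0.62 for Hspa8 and 0.64 for Hspb1. Over the mice of both genotypes these genes fell with the second library axis, as a description (r = -0.77 for Hspa1b, -0.76 for Hspa8 and -0.65 for Hspb1). The library of b6/b6 mouse 12 was highest on that axis, and this mouse had the lowest carbohydrate/protein intake of its genotype (27.4 kcal). It also had the lowest count of each of these genes among b6/b6 mice. Whether these correlations hold apart from the library axes was not tested. In cast/cast mice total kcal gave r = 0.68 for Hspa8 (permutation P = 0.0166) and rho = 0.73 (permutation P = 0.00890, adjusted P = 0.120), with r = 0.46 without the 2 farthest mice.

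Hsp90aa1 had r = 0.70 with carbohydrate/protein kcal in cast/cast mice (permutation P = 0.00934, adjusted P = 0.130) and rho = 0.82 (permutation P = 0.00196, adjusted P = 0.0529). In b6/b6 mice the values were r = -0.55 (permutation P = 0.0660, adjusted P = 0.357) and rho = -0.76 (permutation P = 0.00592, adjusted P = 0.107). Without the 2 mice farthest from the median intake, r was 0.78 among cast/cast and -0.68 among b6/b6 mice. The difference between the genotypes was not tested. None of the intake correlations passed the adjusted threshold.

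Hspa1a had differences of opposite sign in mice of low and high study number. Among the 12 mice with numbers under 150 (7 cast/cast and 5 b6/b6) its log2 fold change was 0.90 ± 0.34 (SE, P = 0.0191, limma). Among the 12 mice over 150 (5 cast/cast and 7 b6/b6) it was -0.34 ± 0.32 (SE, P = 0.307, limma). The interaction, higher minus lower numbers, was -1.24 ± 0.48 (SE, P = 0.0166, adjusted P = 0.340, limma). All 3 libraries of low correlation, cast/cast 6, b6/b6 6 and b6/b6 12, were among the mice under 150. Without them the log2 fold change under 150 was 0.57 ± 0.39 (SE, P = 0.167, limma, 6 cast/cast and 3 b6/b6 mice), and the interaction was -0.91 ± 0.53 (SE, P = 0.0979, adjusted P = 0.881, limma). By limma 0 of 13998 genes had an adjusted interaction P of at most 0.05. An unadjusted P under 0.05 was reached by 1885 of 13998 genes, and among the members by Hspa1a alone. Hsph1 also changed sign, from 0.48 ± 0.20 (SE, P = 0.0302, limma) under 150 to -0.07 ± 0.21 (SE) over 150. The Hsph1 interaction was -0.55 ± 0.29 (SE, P = 0.0654, adjusted P = 0.384, limma). Hsp90ab1 went from -0.34 ± 0.33 to 0.04 ± 0.20 (SE), and the other members kept their sign.

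**Figure D5:**
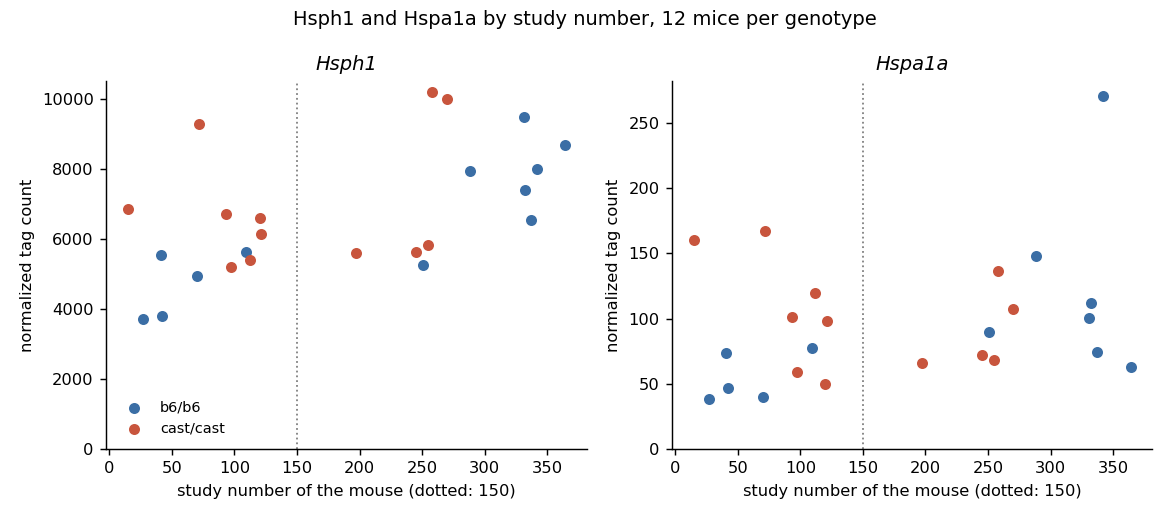
Normalized tag count (y axes, linear from 0) of Hsph1 and Hspa1a against the study number of each mouse, 12 b6/b6 and 12 cast/cast mice; the dotted line marks 150. Hsph1 rises with the number among b6/b6 mice (r = 0.87), and under 150 Hspa1a is on average higher among cast/cast mice.

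The wider chaperone network gave few differences between genotypes. Of 134 genes on 7 lists of chaperones, co-chaperones and stress factors, 128 were tested and 1 was called, beside 1.49% of all genes. Their median log2 fold change was -0.03, beside -0.02 over all genes, and 10 had an unadjusted P under 0.05 (3 higher and 7 lower in cast/cast mice). The called gene was Tomm34, which encodes a co-chaperone of HSP70 and HSP90 at the mitochondrial surface. It ran from 34.1 through 71.3 to 302 among b6/b6 and from 9.495 through 41.7 to 71.3 among cast/cast mice. Its log2 fold change was -1.20 ± 0.37 (SE, P = 0.00333, adjusted P = 0.311, limma), and the adjusted P was 0.165 by edgeR and 0.0351 by DESeq2. Its highest value was in b6/b6 mouse 12, and without the 3 libraries named above the log2 fold change was -0.66 (P = 0.0289, limma) and it was not called.

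Of the 7 lists, that of HSP90 co-chaperones held the only call (0 higher and 1 lower of 23 tested). The HSP70 family and exchange factors (21 tested, median log2 fold change -0.07), the J-domain family (40 tested, 0.04) and the small heat shock proteins (6 tested, 0.21) had 0 called by limma, with 1, 3 and 1 at an unadjusted P under 0.05. The chaperonins and prefoldin (15 tested, -0.22), the endoplasmic reticulum stress response (25 tested, -0.19) and the heat shock factors (4 tested, 0.09) also had 0 called, with 1, 3 and 0 at that level. Tool by tool, edgeR and DESeq2 each called 3 of the 128 genes, namely Tomm34, Sil1 and Cct5, all lower in cast/cast mice. Of all 13998 genes edgeR called 391 and DESeq2 395. Sil1 (692, beside a b6/b6 median of 128) and Cct5 (1075, beside 277) were also highest in b6/b6 mouse 12.

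Among the most abundant genes of the lists, Hsp90b1, the HSP90 of the endoplasmic reticulum, had 19317 ± 3510 (SD, n = 12) normalized counts among b6/b6 and 20521 ± 2876 (SD, n = 12) among cast/cast mice. It was thus above its partner Hspa5 in the mean. Ptges3, the HSP90 co-chaperone p23, had 11644 ± 5887 and 13606 ± 4593, and Ppid, a cyclophilin that binds HSP90, had 7602 ± 1939 and 8981 ± 995 (SD, n = 12 each). The J-domain genes were led by Dnaja1 (8625 ± 2150 and 9078 ± 1975), Dnajc6, the auxilin that uncoats clathrin vesicles with Hspa8 (8331 ± 1947 and 7622 ± 1308), and Dnaja2 (4537 ± 872 and 4412 ± 595). The mitochondrial HSP70 gene Hspa9 had 3790 ± 1274 and 4434 ± 2321. Cryab, the best-known small heat shock protein of glia, had 243 ± 78.9 and 269 ± 114. Of the heat shock factor list Hsbp1, a binding protein of these factors, had 3723 ± 926 and 4668 ± 2069, Hsf2 769 ± 448 and 882 ± 583, and Hsf4 158 ± 28.8 and 152 ± 28.8. The other leading genes, Bag5, Hspb3, Hspb11, Hspe1, Cct2, Cct7, Canx and Sel1l, had log2 fold changes between -0.46 for Cct7 and 0.48 for Hspb3. None of them was called.

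The segment held 5 further chaperone genes of these lists, and 0 of the 5 were called by limma, edgeR or DESeq2. By limma 24.4% of the 430 tested genes of the segment were called. At an unadjusted P under 0.05 by limma 0 of the 5 passed. The log2 fold change was -0.22 ± 0.23 (SE) for Tcp1, a chaperonin subunit, and -0.12 ± 0.18 for Bag6, which guards newly made membrane proteins. It was -0.10 ± 0.27 for Stub1, the ubiquitin ligase of HSP70 clients. Fkbp5 and Fkbpl, immunophilin co-chaperones of HSP90 that act on steroid receptors, had 0.10 ± 0.19 and 0.15 ± 0.23.

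Some genes outside the lists had courses over the 24 mice close to those of members, after centring each genotype on its mean and among 9995 genes with a mean of at least 50. For Hspa8 these were Mrpl18 (r = 0.93), Cycs (0.93), Cox7b (0.92), Tor1aip2 (0.91) and Siva1 (0.91). For Dnajb1 they were Gnl3l (r = 0.94), Dab2ip (0.92), Csnk1d (0.90), Dcaf12 (0.90) and Riok3 (0.89). For Hspa5 they were Nap1l3 (r = 0.84), Rangap1 (0.79), Map3k4 (0.77), Vps41 (0.77) and Fopnl (0.77), and for Hspa1b Bst2 (0.80), Pir (0.79), Rrs1 (0.78), Sav1 (0.77) and Arhgap17 (0.77). These values are descriptions, and the library axes were not removed from them. Of the genes compared, 36.7% reached an r of 0.5 in size with Hspa8, 37.0% with Dnajb1, 11.1% with Hspa5 and 17.4% with Hspa1b.

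Of 15 listed hypothalamic markers 13 were in the table and 0 were called by limma. Their summed normalized count was 12556 to 30247 among b6/b6 and 6831 to 36282 among cast/cast mice. Of the other 10 marker lists, 1 gene of the thalamus and cortex list (Tcf7l2, of 6 tested) and 1 of the ependymal list (Rsph1, of 3 tested) were called, beside 1.49% of all genes. Rsph1 lies in the chromosome 17 segment, where 24.4% of tested genes were called, and its counts are part of the ependymal sums. The summed thalamus and cortex markers were 219 to 935 among b6/b6 and 221 to 472 among cast/cast mice, and the ependymal markers 186 to 1359 and 490 to 2049. The 3 tested blood markers of 5 listed had 0 called by limma and the median log2 fold change farthest from 0 (-0.92), with sums of 121 to 4999 among b6/b6 and 105 to 782 among cast/cast mice. Their part in the chaperone values was not tested.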

How the data were processed

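Hypothalamus RNA of 24 mice was profiled by the authors with SAGE-Seq, in which 27-base tags next to CATG were aligned to RefSeq mRNA and GRCm38/mm10 with a modified SOLiD SAGE Analysis Software. The deposited values are tag hits divided by DESeq size factors, a normalized signal; no length scaling applies. The authors' columns of means, fold changes and P values were not used. Repeated rows of a gene were identical and were collapsed, leaving 13998 genes. Every value was a whole multiple (tolerance 0.02) of 1 tag hit, which returned the raw counts. CAST alleles within the tags were not analysed here. The lowest mean normalized count was 6.03, so the minimum of 5 removed no gene.

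The 2 genotypes were compared with limma 3.58.1 (lmFit, eBayes with trend) on log2(normalized count + 1), which understates changes of low genes. A gene was called at P no higher than 0.01 with a ratio no lower than 1.5, the thresholds of the study's methods. Benjamini-Hochberg adjustment was over all genes. edgeR 4.0.16 (quasi-likelihood, TMM) and DESeq2 1.42.0 on recovered tag hits were alternatives, as were other pseudocounts (0.5 and 5), a minimum mean of 20 or none, equal library totals, study number as a covariate or split at 150, and other thresholds. Leaving out 3 libraries, the 2 library axes, the interaction and correlations after the axes were chosen after seeing the data. Scripts were tested on simulated data. No 2 libraries agreed within sampling noise (lowest chi-square per degree of freedom 14.7 over 276 pairs).

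Named genes were the members, chaperone-list genes that lie in the segment or were called, the 3 genes of each list with the highest mean, called neighbours within 100 kb, and the 5 genes most like Hspa1b, Dnajb1, Hspa8 and Hspa5. Members and lists were chosen with earlier results of these data known. Gene positions were those of the deposited table, on GRCm38, with starts counted from 1. The table placed 13277 genes and RefSeq another 472.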

Additional observations from a re-analysis of the deposited data

How the results depend on the processing

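The number of called members was 0 of 9 under every alternative with the call rule of P and ratio, and under an adjusted P of at most 0.05; it was 1 (Hspa5) under P of at most 0.05 without a minimum ratio. Of all genes 208 were called, against 391 by edgeR, 395 by DESeq2, 458 in mice with study numbers under 150, 80 at an adjusted P of at most 0.05 and 1138 at P of at most 0.05 without a ratio. Of the chaperone lists 1 was called, against 3 by edgeR, 3 by DESeq2, 5 under study number 150, 0 over 150, 0 without the 3 libraries of low correlation, 0 at an adjusted P of at most 0.05 by limma (0 by edgeR and 1, Tomm34, by DESeq2) and 10 at P of at most 0.05 without a ratio. By Pearson's r 0 member pairs and 1 intake or study number correlation passed under equal totals and a pseudocount of 5, as in the report; by Spearman's rho 1 pair passed with the pseudocount of 5 and 0 with equal totals, and 0 intake or study number correlations in both. No paired analysis was possible because each mouse gave 1 library and nothing in the labels pairs mice across genotypes.

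Log2 fold changes of named genes that changed sign were all uncalled, and the cause was not tested. Over study number 150 they were Hspa1a -0.34, Hsp90ab1 0.035, Hsph1 -0.069, Hspa9 -0.14, Bag6 0.13, Ptges3 -0.096, Cryab -0.051, Tcp1 0.17, Canx 0.071, Sel1l -0.11, Hsf2 -0.44 and Hsf4 0.053. Without the 3 libraries they were Hspa1a -0.051, Hsph1 -0.047, Hspa9 -0.043, Ptges3 -0.051, Fkbpl -0.036, Hspe1 0.070, Tcp1 0.15, Sel1l -0.083, Hsf2 -0.28 and Hsf4 0.057. With 2 library axes they were Hsph1 -0.019, Dnaja1 -0.048, Ptges3 -0.084, Fkbpl -0.083, Cryab -0.087, Tcp1 0.11, Canx 0.037 and Hsf2 -0.15. Under study number 150 they were Stub1 0.42, Dnaja2 0.22, Dnajc6 0.25, Hspb11 -0.66 and Cct2 -0.15. With study number as a covariate they were Stub1 0.050, Dnaja2 0.019, Fkbp5 -0.017 and Cct2 -0.0031, with equal totals Dnaja1 -0.0063, Cryab -0.0035, Cct2 -0.053 and Sel1l -0.080, and by DESeq2 Canx 0.0032. Members kept their sign and side of the call in 84 of the 90 refits in which the fold change could move. The fewest tag hits of a member were 12, for Hspa1b in 1 mouse, which limits the precision of low values.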

Other observations

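Beside Tomm34, 9 genes of the chaperone lists had an unadjusted P under 0.05 by limma and were not called; they are named here after their values were seen. Lower in cast/cast mice were Cct5, a chaperonin subunit (log2 fold change -0.56 ± 0.23, SE), Sil1, the exchange factor of Hspa5 (-0.74 ± 0.33), Dnajc10, a J-domain reductase of the endoplasmic reticulum (-0.32 ± 0.11), Dnajc13 (-0.70 ± 0.30), Syvn1, a ubiquitin ligase of endoplasmic reticulum degradation (-1.05 ± 0.49) and Edem1 (-0.26 ± 0.13). Higher were Creld2 (0.42 ± 0.19), Dnaja3 (0.26 ± 0.12) and Hspb3 (0.48 ± 0.21). Their adjusted P lay between 0.482 and 0.608 (limma), and these 10 genes were 7.81% of the 128 tested, beside 8.13% of all genes.

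Hsf2, a heat shock factor, was among the 5 genes whose course over the 24 mice was closest to that of Hsph1 (r = 0.93, genotype-centred, a description). It was singled out after its value was seen, and 47.6% of 9995 genes reached an r of 0.5 in size with Hsph1.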
